A study of Mus musculus with 16 samples.

Results

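The 10 genes described here, Glul, Slc1a2, Oat, Rhbg, Lgr5, Axin2, Tbx3, Rnf43, Znrf3 and Notum, are hepatocyte genes known to depend on Wnt signalling around the central vein. They were chosen by name, and all 10 are among the 17003 genes of the deposited liver table. The table gives one polyA RNA library for each of 16 male mice aged 8 weeks, labelled as fed. The 8 Fgl1 LKO mice carried floxed Fgl1 alleles and a CRE recombinase driven by the albumin promoter, which is active in hepatocytes, so that Fgl1, a protein secreted by hepatocytes, was deleted in those cells. The 8 Fgl1 WT mice were littermates with the floxed alleles and without the CRE, so that the CRE itself is carried by one genotype only. The comparison asks whether pericentral gene expression differs in the absence of hepatocyte Fgl1. Mice are called WT1 to WT8 and LKO1 to LKO8, by the numbers in their labels.

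Blood enters the liver lobule in the portal area and leaves through the central vein, and hepatocytes along this path express different genes. Endothelial cells of the central vein and nearby sinusoids secrete Wnt2, Wnt9b and the R-spondin Rspo3. Wnt ligands stabilise beta-catenin, which acts with TCF factors to switch on genes for glutamine synthesis and for drug and bile acid metabolism in pericentral hepatocytes. R-spondins act through LGR receptors by removing RNF43 and ZNRF3, a pair of ubiquitin ligases that otherwise clear Wnt receptors from the cell surface.

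Values are in FPKM (fragments scaled to transcript length and to the mapped fragments of the library), so that levels can be compared between genes. The table has no read counts, and its FPKM sums ranged from 673153 to 786188 per mouse, with 14116 to 14407 genes above 0. Fgl1 itself separated the genotypes. It ranged from 158 to 1331 FPKM in Fgl1 WT and from 13.2 to 90.0 FPKM in Fgl1 LKO livers, with no overlap (log2 fold change -3.11, adjusted p = 0.0725 by limma, exact permutation p = 0.000155, the smallest that 8 against 8 mice allow). Among the markers of liver identity, 6 of 6 hepatocyte genes were expressed, and their summed level was 53530 to 87380 FPKM in Fgl1 WT and 48900 to 69420 FPKM in Fgl1 LKO. Summed cholangiocyte markers, of which Spp1 was the largest, reached 262 FPKM in 1 Fgl1 LKO liver and 83.5 FPKM in LKO2. In Fgl1 WT livers they were at most 56.1 FPKM. Summed adipocyte markers reached 7.04 FPKM in Fgl1 LKO against at most 0.45 FPKM in Fgl1 WT livers. Cidec was the largest of these, only 1 of 4 averaged 0.1 FPKM or more, and Plin1 was at 0 in all mice. At an unadjusted p under 0.05 by limma, 2 of 6 Kupffer cell markers differed between genotypes (all genes, 7.01%), with 0 past the adjusted threshold. Their part in the results was not tested.

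The 4 members that sit on chromosome 11 are Znrf3 (chr11:5226324-5394939, minus strand), Rnf43 (chr11:87553548-87626377, plus strand), Axin2 (chr11:108811169-108841609, plus strand) and Notum (chr11:120541446-120552019, minus strand), in the GRCm39 build with GENCODE gene models. No pair of them lies closer than 11.7 Mb. The others are Glul on chromosome 1, Slc1a2 on 2, Rhbg on 3, Tbx3 on 5, Oat on 7 and Lgr5 on 10. A RefSeq promoter table (GRCm38.p6), with 250 bases before and 50 after each start, held 6 windows for 5 of the 10 members, Glul, Slc1a2, Oat, Rnf43 and Axin2. The 7-letter core CTTTGAT, bound by TCF factors, was searched on both strands, where it reads ATCAAAG on the other one. It was present in 3.73% of the 32851 windows of the table and in the window of 1 member, Slc1a2, 207 bases before the start. The stretch is shown because it holds the one match, in capitals, and it lies outside the exons of Slc1a2 but inside the gene model of its longer transcripts (GRCm39 chr2:102536533-102536632, plus strand). 
Slc1a2: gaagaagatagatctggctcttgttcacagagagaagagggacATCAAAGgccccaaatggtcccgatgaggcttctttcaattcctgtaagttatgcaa
A match to these letters is a description of the sequence, and RNA levels alone do not show whether a factor binds there.

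The members covered a wide range of levels. By the median over 16 mice, Glul was highest at 392 FPKM, followed by Oat at 253, Slc1a2 at 26.8, Notum at 15.9, Rhbg at 7.01, Tbx3 at 5.42, Rnf43 at 5.08, Axin2 at 1.87, Znrf3 at 1.65 and Lgr5 at 1.59 FPKM. The steps from Glul down to Rhbg, and the step from Rnf43 to Axin2, were seen within 16 of 16 mice. Neighbours elsewhere in the order crossed in some mice. Rhbg exceeded Tbx3 in 10 of 16 livers, Tbx3 exceeded Rnf43 in 11, Axin2 exceeded Znrf3 in 11 and Znrf3 exceeded Lgr5 in 12. In whole liver RNA, fewer cells of a type and less RNA per cell cannot be told apart.

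**Figure D1:**
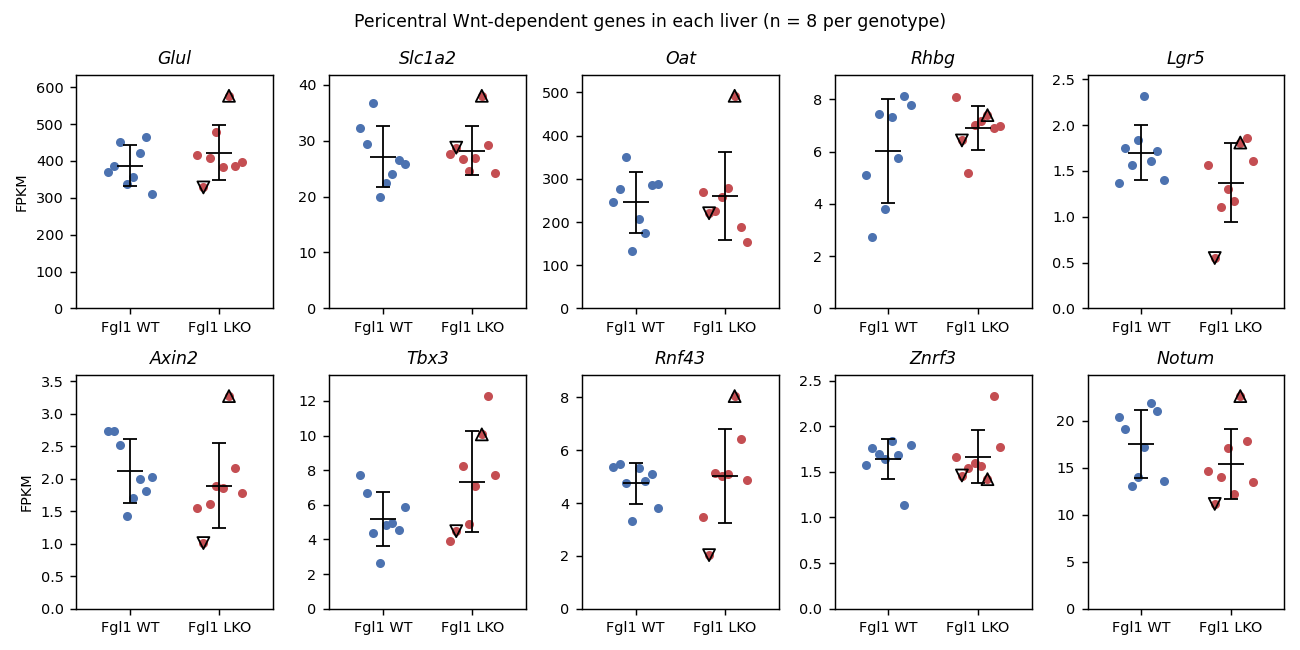
FPKM of the 10 members in each liver, by genotype, each panel on its own linear axis from 0; points are mice, and bars are the mean and SD of 8 mice. The open triangles mark LKO6 (pointing up) and LKO2 (pointing down), and the genotypes overlap in every panel.

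None of the 10 members passed the test between genotypes. All 10 passed the filter on low values, a mean of 0.1 FPKM over the 16 mice. With limma on log2(FPKM + 1), 0 of 10 passed an adjusted p of 0.05, as did 0.0% of the 12770 genes tested. The deleted gene Fgl1 did not pass either (limma adjusted p = 0.0725), so that 0 of 10 does not show that the genotypes are equal. At an unadjusted p under 0.05 the count was again 0 of 10 members, against 7.01% of all genes. The log2 fold change was above 0 in 7 of 10 members, against 55.8% of all genes, and its median was 0.040, against 0.014 over all genes. The 2 genotypes overlapped in 10 of 10 members, and they did not overlap in 0.0157% of all genes. Each estimate is on the log2(FPKM + 1) scale, which understates the change of genes at a few FPKM.

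Among the genes of ammonia and glutamine handling, Glul encodes glutamine synthetase, which fixes ammonia in the last hepatocytes before the central vein. Its level was 309 FPKM at the lowest, 379 at the median and 464 at the highest in Fgl1 WT livers. In Fgl1 LKO livers it was 328, 403 and 577 FPKM. The genotypes overlapped, with only LKO6 and LKO4, at 577 and 479 FPKM, above every Fgl1 WT liver. The means were 387 ± 54.8 and 422 ± 75.1 FPKM (SD, n = 8 each), a log2 fold change of 0.12 (95% interval -0.11 to 0.35, limma adjusted p = 0.797, exact permutation p = 0.310). Without LKO6 it was 0.052, without WT8 0.075, and with the runs of mouse numbers, which are described with Axin2, as a term 0.18.

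Slc1a2 encodes the glutamate transporter GLT-1, which supplies pericentral hepatocytes with the substrate of glutamine synthetase. Its lowest, median and highest levels were 19.9, 26.2 and 36.7 FPKM in Fgl1 WT and 24.2, 27.2 and 38.0 FPKM in Fgl1 LKO livers. The genotypes overlapped, with WT4 lowest and LKO6 highest. The log2 fold change was 0.066 (95% interval -0.17 to 0.30, limma adjusted p = 0.902), and without LKO2 and LKO6 it was -0.012. It ranged from 0.0046 without LKO6 to 0.13 without WT3 when 1 mouse was left out, and was 0.25 with the run term.

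Oat encodes ornithine aminotransferase, which turns ornithine towards glutamate. It spread more than Glul within each genotype, from 133 through 262 to 352 FPKM in Fgl1 WT and from 154 through 242 to 492 FPKM in Fgl1 LKO livers. Again WT4 was lowest and LKO6 highest, and 5 of 8 Fgl1 LKO livers lay below the Fgl1 WT median. Its log2 fold change of 0.065 (95% interval -0.38 to 0.51, limma adjusted p = 0.957) turned to -0.077 when LKO6 was left out and to -0.052 when WT4 was left out. With the run term it was 0.27.

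Rhbg, an ammonia transporter of the Rhesus family, was at 2.74, 6.54 and 8.14 FPKM (lowest, median, highest) in Fgl1 WT and at 5.20, 7.01 and 8.09 FPKM in Fgl1 LKO livers. The low values belonged to WT2 and WT4, while the highest values of both genotypes were almost equal. The coefficient of variation was 33.1% in Fgl1 WT and 12.1% in Fgl1 LKO, and the difference in spread was not tested. On the log2 scale the genotype difference was 0.23 (SE 0.160, limma adjusted p = 0.761), and it was 0.10 without WT2.

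Of the receptor and its ligases, Lgr5 encodes the R-spondin receptor of the most pericentral hepatocytes. It was 1.37, 1.67 and 2.32 FPKM at the lowest, median and highest in Fgl1 WT, and 0.55, 1.44 and 1.86 FPKM in Fgl1 LKO livers. The Fgl1 LKO livers LKO2, LKO3, LKO4 and LKO5 lay below every Fgl1 WT liver, and the other 4 lay within the Fgl1 WT range. The means were 1.70 ± 0.300 and 1.37 ± 0.434 FPKM (SD, n = 8 each). The log2 fold change was -0.20 (95% interval -0.43 to 0.029, limma adjusted p = 0.707, exact permutation p = 0.0956), so that this difference did not pass the test. It was -0.12 without LKO2 and -0.37 with a pseudocount of 0.01.

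Rnf43, one of the ubiquitin ligases against Wnt receptors, was 3.34, 4.99 and 5.47 FPKM in Fgl1 WT and 2.03, 5.08 and 8.05 FPKM in Fgl1 LKO livers (lowest, median, highest). Its Fgl1 LKO livers extended beyond the Fgl1 WT range at both ends, with LKO2 lowest and LKO6 and LKO7 highest. The coefficient of variation was 16.3% in Fgl1 WT and 35.7% in Fgl1 LKO, again with no test of the difference. Between genotypes the log2 fold change was 0.015 (SE 0.168, limma adjusted p = 0.983).

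Znrf3, the partner ligase of Rnf43, had the narrowest 95% interval of the log2 fold change among the members. The log2(FPKM + 1) scale narrows it at such low levels. In FPKM, its coefficient of variation in Fgl1 LKO was 17.4%, above Slc1a2 (15.3%) and Rhbg (12.1%). The level of Znrf3 was 1.14, 1.70 and 1.84 FPKM in Fgl1 WT and 1.42, 1.58 and 2.33 FPKM in Fgl1 LKO livers. A single mouse of each genotype stood apart, WT7 low and LKO7 high, and the others lay between 1.42 and 1.84 FPKM. The log2 fold change was 0.012 (95% interval -0.14 to 0.16, limma adjusted p = 0.975).

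The feedback inhibitors are switched on by beta-catenin and dampen the pathway that induces them. Axin2, a scaffold of the beta-catenin destruction complex, was 1.43, 2.02 and 2.74 FPKM in Fgl1 WT and 1.01, 1.82 and 3.27 FPKM in Fgl1 LKO livers. LKO2 and LKO6 held both ends of the whole range. In Fgl1 WT the highest 3 livers were WT1, WT2 and WT3, whose mouse numbers form a run of their own, and with these runs of mouse numbers as a term the log2 fold change moved from -0.12 (SE 0.127, limma adjusted p = 0.819) to 0.081 (adjusted p = 0.856). Without LKO2 it was -0.054 and without LKO6 -0.21.

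Notum encodes a secreted enzyme that removes the lipid from Wnt proteins. Its lowest, median and highest levels were 13.1, 18.1 and 21.9 FPKM in Fgl1 WT and 11.2, 14.3 and 22.6 FPKM in Fgl1 LKO livers. In 7 of 8 Fgl1 LKO livers the level was below the Fgl1 WT median, the exception being LKO6, which was the highest of all 16. The log2 fold change was -0.18 (95% interval -0.47 to 0.11, limma adjusted p = 0.771, exact permutation p = 0.237).

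Tbx3, a transcription factor of pericentral hepatocytes, had the largest estimate of the 10. It was 2.65, 4.90 and 7.74 FPKM in Fgl1 WT and 3.89, 7.40 and 12.3 FPKM in Fgl1 LKO livers. The 3 Fgl1 LKO livers LKO3, LKO6 and LKO7 exceeded every Fgl1 WT liver, while LKO1, LKO2 and LKO4 lay below the Fgl1 WT median. The means were 5.21 ± 1.55 and 7.33 ± 2.91 FPKM (SD, n = 8 each), a log2 fold change of 0.39 (95% interval -0.040 to 0.82, limma adjusted p = 0.700, exact permutation p = 0.106). With the run term it was 0.66.

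**Figure D2:**
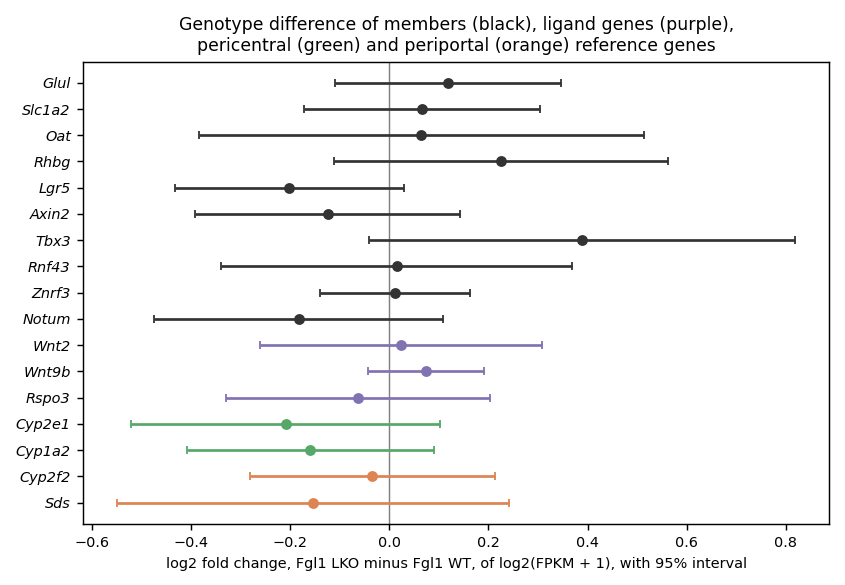
Log2 fold change of Fgl1 LKO minus Fgl1 WT on the log2(FPKM + 1) scale (horizontal axis), with 95% intervals from limma, for the 10 members, 3 ligand genes and 4 zone reference genes. All the intervals drawn include 0, from Tbx3 at 0.39 to Cyp2e1 at -0.21.

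The ligand genes are made by endothelial cells and were low in whole liver. Wnt2 was at 0.995 ± 0.305 FPKM in Fgl1 WT and 1.07 ± 0.579 in Fgl1 LKO livers, and Rspo3 was at 1.53 ± 0.502 and 1.42 ± 0.448 FPKM (SD, n = 8 each). Wnt9b was close to the lower end of the table, at 0.166 ± 0.0441 and 0.233 ± 0.125 FPKM. Their log2 fold changes were 0.023 for Wnt2, -0.064 for Rspo3 and 0.074 for Wnt9b, with adjusted p-values from 0.769 to 0.975.

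In the wider Wnt pathway, a list of 43 genes that holds ligands, receptors, beta-catenin and inhibitors, 40 genes were expressed above the filter and 0 passed the adjusted threshold, with 1 higher and 1 lower at an unadjusted p under 0.05 (all genes, 4.64% higher and 2.36% lower). Sp5, a transcription factor induced by Wnt signals, was at 0.508 ± 0.112 FPKM in Fgl1 WT and 0.680 ± 0.202 in Fgl1 LKO livers (log2 fold change 0.15, limma adjusted p = 0.696). Dvl2, which relays the signal from the receptor, was at 1.52 ± 0.387 and 1.13 ± 0.297 FPKM (log2 fold change -0.23, limma adjusted p = 0.696). The third by p was the secreted inhibitor family member Dkk3, at 0.394 ± 0.0703 and 0.481 ± 0.101 FPKM (adjusted p = 0.709).

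For 23 other pericentral hepatocyte genes the median log2 fold change was -0.021 (all genes, 0.014), 0 passed the adjusted threshold, and 1 was higher at an unadjusted p under 0.05 (all genes, 4.64%). Por, the reductase that feeds electrons to cytochromes P450, had the smallest p of them. It ranged from 35.2 to 71.3 FPKM in Fgl1 WT and from 57.2 to 93.7 FPKM in Fgl1 LKO livers, and 8 of 8 Fgl1 LKO livers were above the Fgl1 WT median (log2 fold change 0.46, SE 0.134, unadjusted p = 0.0030, limma adjusted p = 0.696). Of the classical pericentral cytochromes P450, Cyp2e1 was at 3101 ± 601 FPKM in Fgl1 WT and 2703 ± 679 FPKM in Fgl1 LKO, and Cyp1a2 at 290 ± 51.3 and 260 ± 43.2 FPKM (SD, n = 8 each). Their adjusted p-values were 0.759 and 0.769. Slc16a10 (log2 fold change -0.17) and Avpr1a (-0.24) came next.

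At the other end of the lobule, 22 periportal hepatocyte genes had a median log2 fold change of -0.058 (all genes, 0.014), and 2 of 22 were lower at an unadjusted p under 0.05 (all genes, 2.36%), with 0 past the adjusted threshold. They were Hsd17b13, a lipid droplet protein (log2 fold change -0.21), and Hal, which degrades histidine (-0.31), each with a limma adjusted p of 0.696. Agxt, which detoxifies glyoxylate, followed at -0.17. Cyp2f2, a periportal cytochrome P450, was at 1071 ± 216 and 1036 ± 130 FPKM, and Sds, which degrades serine, was at 155 ± 41.1 and 142 ± 53.7 FPKM (adjusted p = 0.958 and 0.853).

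Several members were high or low in the same mice. LKO6 had the highest level of 6 of the 10, Glul, Slc1a2, Oat, Axin2, Rnf43 and Notum, while it was highest for 7.70% of all genes tested. It was above the median of all mice in 9 of 10 members, against 51.2% of all genes. LKO2 had the lowest level of Lgr5, Axin2, Rnf43 and Notum, against 4.60% of all genes, and WT4 that of Slc1a2, Oat and Tbx3, against 3.05%. Each of these latter mice was above the median in 1 of 10 members, against 48.3% of all genes for LKO2 and 57.8% for WT4. Beyond the members, LKO6 had the highest level of 9 of the 23 other pericentral genes, Cyp2e1 (4202 FPKM) and Por among them. Of the 22 periportal genes it was highest for 1 and lowest for 1, and above the median in 14. Of the 23 other pericentral genes LKO6 was above the median in 20, LKO2 in 3 and WT4 in 6. Of the 22 periportal genes LKO2 was above the median in 5 (all genes, 48.3%) and WT4 in 12 (all genes, 57.8%). In LKO6 the summed markers ranked 10 of 16 for hepatocytes, for cholangiocytes and for central vein and sinusoidal endothelium, 14 for Kupffer cells, 15 for stellate cells and 2 for erythroid cells. In LKO2 they ranked 9 for hepatocytes, 2 for cholangiocytes, 3 for endothelium, 10 for Kupffer cells, 13 for stellate cells and 10 for erythroid cells. Their part in the members' levels was not tested.

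Across the 16 mice, 35 of 45 pairs of members were positively correlated, with a median Pearson r of 0.28. The r was at least 0.6 in 7 of 45 pairs, or 15.6%, against 1.20% of all pairs of a member with an expressed gene, and it was at most -0.6 in 0 of 45 pairs, against 1.17%. With LKO2 and LKO6 left out, 3 of 45 pairs, or 6.67%, reached 0.6, against 1.24%, and the median r was 0.093. After adjustment over the 45 pairs, 4 had a permutation p under 0.05. Leaving out LKO6 alone brought this count to 0, with a smallest adjusted p of 0.0884, and leaving out LKO2 gave 4, with Slc1a2 and Axin2 in place of Rnf43 and Notum. With the genotype means removed the count was 11.

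**Figure D3:**
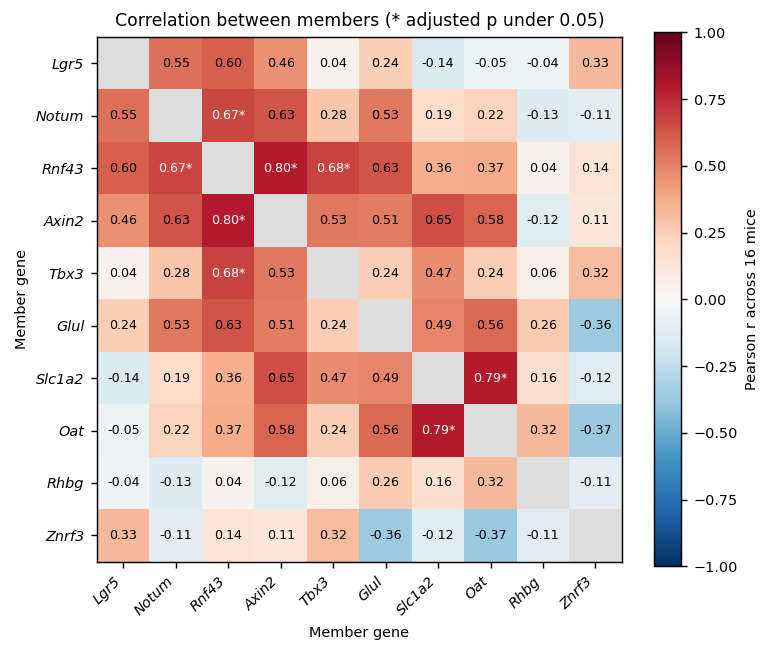
Pearson r of log2(FPKM + 1) across 16 mice for each of the 45 pairs of members (both axes list the members, and colour runs from -1 to 1). The 4 starred pairs have an adjusted permutation p under 0.05, and Rnf43 is in 3 of them.

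Slc1a2 and Oat, the transporter and the enzyme around glutamate, varied together across mice. Pearson r was 0.79 (permutation p = 0.00028, adjusted p = 0.00698) and Spearman rho 0.61 (permutation p = 0.0144, adjusted p = 0.135), and Oat was 5 of 12769 genes in order of r with Slc1a2. Without the 2 mice farthest from the median of Slc1a2, r was 0.60 (permutation p = 0.0217). Within genotypes r was 0.84 in Fgl1 WT (n = 8, exact permutation p = 0.00910) and 0.77 in Fgl1 LKO (n = 8, exact permutation p = 0.0469). Neither passed after adjustment over the 45 pairs. LKO6 was the highest of all 16 mice for both genes, at 38.0 FPKM for Slc1a2 and 492 FPKM for Oat. The r within Fgl1 LKO without LKO6 was not computed. Across both genotypes without LKO2 and LKO6, r was 0.71 (permutation p = 0.00379). With means of the mouse-number runs removed r was 0.80.

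Axin2 and Rnf43, both of which restrain Wnt signalling, had an r of 0.80 (permutation p = 0.00031, adjusted p = 0.00698; rho 0.63, permutation p = 0.0101). LKO2 and LKO6 are at the 2 ends of this relation and are also the mice farthest from the median of Axin2. Without them r was 0.51 (permutation p = 0.0625). Leaving out the mice at both ends narrows the range, so this alone cannot show whether the relation rests on them. With 1 mouse left out r was 0.69 to 0.83. Within genotypes r was 0.93 in Fgl1 LKO (n = 8, exact permutation p = 0.00218) and 0.58 in Fgl1 WT (n = 8, exact permutation p = 0.142). With run means removed it was 0.77.

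Rnf43 was also correlated with Tbx3 and with Notum. For Tbx3 and Rnf43, r was 0.68 (permutation p = 0.0040, adjusted p = 0.0449) and rho 0.77 (permutation p = 0.00070, adjusted p = 0.0315), the only pair past the threshold by rank, and without LKO2 and LKO6 r was 0.75 (permutation p = 0.00195). Without the 2 mice farthest on Tbx3 r was 0.61, with run means removed 0.65, and within genotypes 0.65 in Fgl1 WT and 0.79 in Fgl1 LKO. For Rnf43 and Notum, r was 0.67 (permutation p = 0.00246, adjusted p = 0.0369) and rho 0.63 (permutation p = 0.0116). Without LKO2 and LKO6, which are also the mice farthest on Rnf43, r was 0.43 (permutation p = 0.123). Here too the narrower range means that this alone cannot show whether the relation rests on LKO2 and LKO6. With run means removed r was 0.51. Within Fgl1 WT, which holds neither, r was 0.68 (n = 8, exact permutation p = 0.0619), and within Fgl1 LKO it was 0.79. Rhbg and Znrf3 had r from -0.37 to 0.33 to every other member. By rank Rhbg and Oat had a rho of 0.59 (permutation p = 0.0181, adjusted p = 0.135). With run means removed Rhbg had an r of 0.53 with Oat and 0.54 with Slc1a2, and neither pair passed the adjusted threshold.

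**Figure D4:**
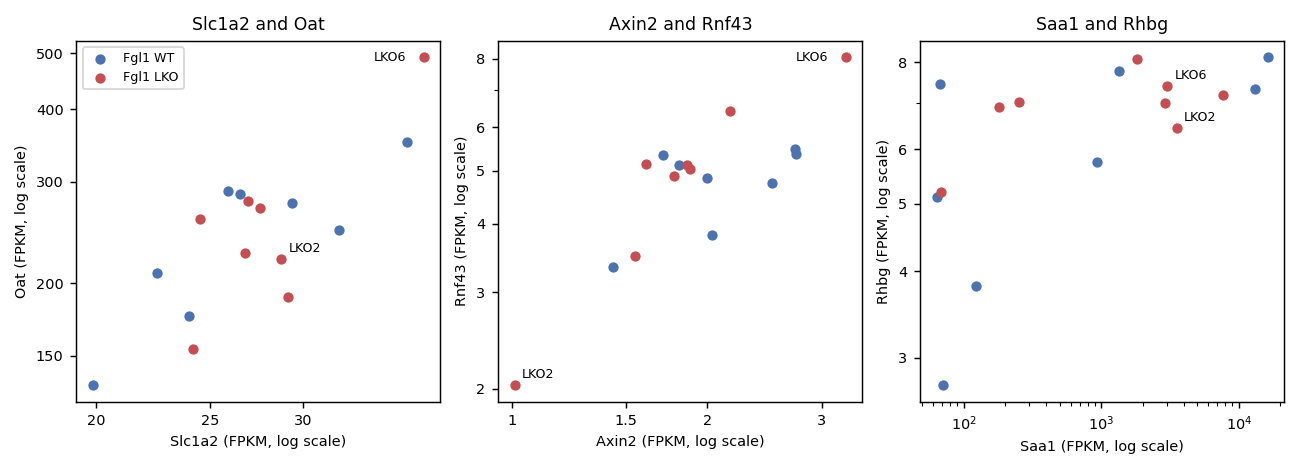
Levels in each liver (FPKM, both axes logarithmic) of Oat against Slc1a2, Rnf43 against Axin2 and Rhbg against Saa1, with points coloured by genotype. LKO2 and LKO6 lie at the ends of the Axin2 and Rnf43 relation, and without them its r is 0.51.

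By the count at an r of at least 0.6, other pericentral genes varied most with Axin2 and Slc1a2. Axin2 had r of at least 0.6 with 7 of the 23 (30.4%, against 2.19% of all genes), which were Nr1i3 (0.85), Cyp2c29 (0.82), Cyp2c37 (0.78), Cyp2e1 (0.73), Avpr1a (0.64), Lhpp (0.63) and Cyp2c50 (0.62). Nr1i3 encodes the xenobiotic receptor CAR, and the Cyp2c genes are cytochromes P450. Slc1a2 had such an r with 5 of 23 (21.7%, against 1.00% of all genes). Without LKO2 and LKO6 the counts were 5 of 23 for Axin2 (21.7%, against 3.34%) and 4 of 23 for Slc1a2 (17.4%, against 1.24%). The 23 pericentral genes had a median r of 0.33 with Slc1a2, 0.46 with Oat and 0.36 with Axin2 (all genes, 0.033, -0.028 and 0.027). With the other members this median ranged from -0.014 for Znrf3, 0.048 for Rhbg and 0.11 for Lgr5 to 0.34 for Glul. For the 22 periportal genes the median r with Slc1a2, Oat and Axin2 was 0.21, 0.36 and 0.28, which was also above that of all genes. Pigr, a periportal gene that encodes an immunoglobulin transporter, had an r of 0.81, 0.63 and 0.55 with them. Cyp2f2 went the other way, at -0.66, -0.64 and -0.52 (-0.58, -0.52 and -0.40 without LKO2 and LKO6). So did Cdh1 (-0.53, -0.66 and -0.37), Ctsc (-0.40, -0.34 and -0.36) and G6pc (-0.19, -0.30 and -0.17), while most of the periportal genes had a positive r. These are descriptions across 16 livers, which share a library and its scaling within each mouse.

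By the highest Pearson r among 10036 genes at a mean of 1 FPKM or more, the genes most like each member were as follows. They are the top of a search over 16 mice, where high values also arise by chance, and no test was made. They were not recomputed without LKO2 and LKO6. Glul varied most like Tmem177 (0.80), Cyp27a1 (0.79) and Cyp7a1 (0.78), of which the latter pair encode enzymes of bile acid synthesis. Slc1a2 came with Aldh1a1 (0.81), Pigr (0.81) and Rdh9 (0.80), and Oat with Lhpp (0.91), Aldh1a1 (0.88) and Mrps17 (0.83). For Lgr5 the leading gene was Tcf7l2 (0.74), which encodes a TCF factor that partners beta-catenin, and the next were 0610040J01Rik (0.74) and Snx24 (0.74). Lgr5 and Tcf7l2 were both lowest in LKO2 and highest in WT5. An r of at least 0.6 with Lgr5 was reached by 0.235% of all genes. Axin2 was followed by Gpank1 (0.87), Nr1i3 (0.85) and Acsm5 (0.84), and Rnf43 by Il22ra1 (0.86), Usf1 (0.82) and Rbm3 (0.81). Tbx3 had Smad7 (0.80), Gfra1 (0.79) and Prune1 (0.79), Notum had Arl6ip4 (0.90), Ctsa (0.87) and Cldn3 (0.86), Rhbg had Susd4 (0.86), Fam25c (0.78) and Ldhd (0.78), and Znrf3 had Bach2 (0.80), Apoa4 (0.76) and Ywhaz (0.73).

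The members did not pass the test for correlation with the ligand genes. Of 30 pairs of a member with Wnt2, Wnt9b or Rspo3, 0 passed the adjusted threshold (smallest adjusted p = 0.762), 1 had an unadjusted permutation p under 0.05, and 12 of the 30 were positive. An r of at least 0.6 was reached with 0 members by Wnt2 (all genes, 7.91%), Wnt9b (5.29%) and Rspo3 (4.89%). The pair past the unadjusted threshold was Wnt9b and Lgr5, at r = -0.55 (permutation p = 0.0353), rho = -0.60 and r = -0.58 without the 2 mice farthest on Wnt9b. Wnt9b was read at a fraction of 1 FPKM, where the table's 2 decimals limit its precision.

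Saa1, an acute phase gene that hepatocytes switch on in inflammation, ranged from 63.8 to 16268 FPKM between these livers, a range of 255-fold, and its genotype difference did not pass the test (limma adjusted p = 0.886). Of the 10 members, 0 were correlated with it at the adjusted threshold, 1 had an r of at least 0.6 (all genes, 1.53%) and 0 had an r of at most -0.6 (all genes, 7.08%). Rhbg came nearest, with r = 0.61 (permutation p = 0.00699, adjusted p = 0.0699), rho 0.56, and 0.71 without the 2 mice farthest on Saa1. Within the runs of mouse numbers the relation was weaker, at r = 0.39 (permutation p = 0.134). The r with Saa1 of the other 9 members lay between -0.35 and 0.11.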

How the data were processed

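Liver polyA RNA of 16 mice was sequenced as stranded paired-end DNBSEQ libraries. The authors aligned reads to mm39 with HISAT and to reference genes with Bowtie2, and deposited one FPKM table (2 decimals); tool versions and the counting step are not given in the sources used here. The methods name fewer mice per genotype than the 8 labelled; all were used. Counts were not used here, so depth is unknown. Steps between low values of 36 genes gave relative depths of 0.92 to 1.05. Only values close to a gene's lowest were used, which bounds this range, so it cannot show that depths were alike. The 12770 genes averaging 0.1 FPKM or more were tested with limma 3.58.1 (R 4.3.3, trended empirical Bayes) on log2(FPKM + 1), with Benjamini-Hochberg adjustment over all of them, and single genes with the two-sided exact permutation test over 12870 splits. Correlations used 100000 permutations (all 40320 pairings within a genotype), adjusted over 45, 30 or 10 pairs. Where genotype or run means were removed, the deviations of all 16 mice were permuted with no allowance for the means, which can make p too small. The code was tested on simulated data. Members and lists were chosen with earlier results of these data known. Named were all members, the ligand genes, Fgl1, Saa1, 4 zone reference genes, the 3 genes of smallest p per list and the 3 most like each member. Other genes named for their r, Dixon outliers and the libraries LKO2 and LKO6 were picked after their values were seen. Each library is a separate mouse.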

Additional observations from a re-analysis of the deposited data

Results flagged for a closer look

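In a search of 56 groups of 8 mice, 4 had a mouse whose gap to its nearest neighbour, as a share of the group's range, exceeded Dixon's 95% limit (chance gives about 1 in 20 groups, or 2.8 here). Slc1a2 in LKO6 was 38.0 FPKM, against 29.1 FPKM in the next Fgl1 LKO liver (gap share 0.589). Znrf3 in WT7 was 1.14 FPKM, against 1.58 FPKM in the next Fgl1 WT liver (0.661). Znrf3 in LKO7 was 2.33 FPKM, against 1.77 FPKM (0.577). Wnt2 in LKO3 was 2.36 FPKM, against 1.28 FPKM (0.527).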

How the results depend on the processing

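No member passed the adjusted threshold under any of 29 alternatives of the genotype comparison, and over all genes 0 passed whichever mouse was left out. With equal FPKM sums, the replicate block, the mouse-number run in the model or the first run dropped, 1 gene passed, which was Fgl1 each time. The replicate numbers did not pair the mice (same-number correlation of deviations above 0.1 in 3 of 8, range -0.16 to 0.45; 2 correlated best with their own number), and the block changed no call of a member. Log2 fold changes of members turned sign for Rnf43 (-0.015 by quantile normalization, -0.082 with array weights), Znrf3 (-0.0074 by quantile normalization), Axin2 (0.081 with the run in the model, 0.023 when the first run was dropped) and, without LKO2 and LKO6 (added after seeing the data), Slc1a2 (-0.012) and Oat (-0.074). Leaving out 1 mouse gave -0.077 to 0.16 for Oat, -0.078 to 0.15 for Rnf43 and -0.035 to 0.031 for Znrf3. Member pairs past the threshold numbered 4, but 11 with genotype means removed, 2 with run means removed, 0 within Fgl1 WT, 0 within Fgl1 LKO, 0 without the 2 farthest mice, 1 by Spearman rho, 2 without LKO2 and LKO6 and 0 to 5 when 1 mouse was left out (0 without LKO6, and 2 without each of WT1, WT2 and LKO4). The members correlated with Saa1 numbered 0, but 1 (Rhbg) with median-ratio scaling, without the 2 farthest mice and without WT3, within a leave-one-out range of 0 to 1. Ligand pairs stayed at 0 throughout. Causes of these changes were not tested. Without counts, sampling error at 1 or 2 FPKM cannot be separated from variation between mice.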

Other observations

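The relation of the ligand genes with Saa1 was examined after the values were seen, over 3 ligand genes in 16 mice. Pearson r was -0.69 for Wnt2 (permutation p = 0.00218, adjusted p = 0.00327; rho -0.70, permutation p = 0.00369) and -0.71 for Rspo3 (permutation p = 0.00155, adjusted p = 0.00327; rho -0.65, permutation p = 0.0084), and -0.38 for Wnt9b (adjusted permutation p = 0.141; rho -0.24, permutation p = 0.365). An r of at most -0.6 with Saa1 was common, at 7.08% of all genes. Without the 2 mice farthest on Saa1, r was -0.66 for Wnt2, -0.83 for Rspo3 and -0.46 for Wnt9b. With run means removed r was -0.60 for Wnt2, -0.59 for Rspo3 and -0.44 for Wnt9b. Within Fgl1 WT (n = 8, exact permutation) r was -0.79 for Wnt2 (p = 0.0261), -0.60 for Rspo3 (p = 0.116) and -0.93 for Wnt9b (p = 0.00228). Within Fgl1 LKO (n = 8, exact permutation) r was -0.73 for Wnt2 (p = 0.0274), -0.87 for Rspo3 (p = 0.00104) and -0.37 for Wnt9b (p = 0.360).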
